A study of Homo sapiens with 6 samples.

Results

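The members described here are 3 receptor genes (NPY1R, NPY2R and NPY5R) and 2 peptide genes (NPY and PYY) of the neuropeptide Y system, and NPY1R is the one whose signal stood apart. The members were taken as every probe set that the platform annotation assigns to exactly 1 of these symbols. That gave 9 probe sets of 5 genes, out of 45278 probe sets of 18244 genes with exactly 1 symbol. The set was put together because NPY1R had been seen among the large rises in the same comparison, so the differences of the members are given as a description, without a test. Gene expression was measured with 1-colour Affymetrix arrays in A549 cells, a human lung adenocarcinoma line. The cells of both groups had been given a lentivirus that expresses a small hairpin RNA, directed at TIGD1 in one group (shTIGD1, 3 arrays) and carrying a negative control sequence in the other (shControl, 3 arrays). TIGD1 encodes a protein derived from a pogo-type transposase. The labels number the arrays as replicates and do not say that they came from separate cultures, so that p-values measure the spread between these arrays, which may be technical. A single hairpin against TIGD1 was used, and whether the cells were a pool or a clone was not stated in the material used here. The target sequences of both hairpins, from the labels, are shown because they are all that sets the groups apart by design.
shTIGD1: ctgctaacacaacatccat
shNC: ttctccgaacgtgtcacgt

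Neuropeptide Y is released by neurons, among them sympathetic nerve endings, and peptide YY by endocrine cells of the gut. Both peptides are cut from longer precursors and amidated at the C-terminus, and they act on receptors of the same family, which couple to inhibitory G proteins and lower cyclic AMP. Y1, the product of NPY1R, binds the full-length peptides, whereas Y2 and Y5 also accept forms shortened at the N-terminus by the peptidase DPP4. NPY1R and NPY5R lie next to each other and are transcribed in opposite directions. In breast cancer cells NPY1R is known as an oestrogen-induced gene.

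NPY1R spans chr4:163323962-163344689 of GRCh38.p14 on the minus strand, and NPY5R spans chr4:163343892-163352403 on the plus strand. Their annotated spans share 798 bases, and the start sites of the windows below lie 11296 bases apart. NPY2R lies at chr4:155173723-155217076, NPY at chr7:24284190-24291862 and PYY at chr17:43952733-44004445. The RefSeq promoter windows of NPY1R and NPY5R are shown because these neighbours were the members with higher signals. Each runs from 250 bases before to 50 bases after the start site. The NPY1R window is chr4:163332547-163332846 on the minus strand and the NPY5R window is chr4:163343642-163343941 on the plus strand, both of GRCh38.p14. The start site of the NPY1R window, at base 163332596, lies inside the annotated span of the gene and not at its end. NPY5R has a second window, chr4:163343852-163344151, which is not shown. Capitals mark CACGTG, the core letters of an E-box.
NPY1R: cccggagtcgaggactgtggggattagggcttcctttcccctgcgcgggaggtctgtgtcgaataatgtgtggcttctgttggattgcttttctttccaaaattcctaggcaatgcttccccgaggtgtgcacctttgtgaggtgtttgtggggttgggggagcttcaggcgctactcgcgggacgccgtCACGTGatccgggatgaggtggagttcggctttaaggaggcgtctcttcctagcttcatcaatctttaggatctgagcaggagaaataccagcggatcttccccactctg
NPY5R: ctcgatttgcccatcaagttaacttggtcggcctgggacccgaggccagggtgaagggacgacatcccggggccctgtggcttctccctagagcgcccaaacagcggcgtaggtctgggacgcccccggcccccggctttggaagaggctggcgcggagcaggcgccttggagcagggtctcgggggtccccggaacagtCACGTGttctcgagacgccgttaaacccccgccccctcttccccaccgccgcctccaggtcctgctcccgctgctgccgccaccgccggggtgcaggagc

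The E-box letters CACGTG, which read alike on both strands, begin 60 bases before the start in the NPY1R window and 50 bases before it in the NPY5R window. They occur in 7.26% of all 35116 promoter windows of this length, and in none of the other 5 windows of the members, the second window of NPY5R among them. On either strand, the letters TGACGTCA of a cyclic AMP response element (1.85% of windows) were in none of the 7 member windows. The shorter TGACG (24.6% of windows) was found 63 bases before the start of NPY1R, where it overlaps the E-box, and once in a window of PYY. TGANTCA, the letters of an AP-1 site (7.71% of windows), occurred among the members in the same PYY window only. The motifs were chosen with the sequences in view, and a match is a description of the letters only.

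The background of the arrays was read from 360 probe sets of 334 olfactory receptor genes, which are used mainly by sensory neurons of the nose. The log2 signal of these probe sets had a median of 3.81 to 3.83 on the arrays labelled shTIGD1 and of 3.78 to 3.92 on those labelled shControl. Their 95th percentile, called the background limit here, was 5.04 to 5.08 on the arrays labelled shTIGD1 and 5.02 to 5.18 on those labelled shControl. Probe sets differ in how strongly they bind the same amount of RNA, so distances from this limit describe each probe set and do not rank the genes. TIGD1, the targeted gene, read 6.88, 6.84 and 6.86 on the arrays labelled shTIGD1 and 6.96, 6.93 and 6.85 on those labelled shControl. Its log2 difference of -0.06 (SE 0.04, limma adjusted p = 0.427) did not pass the test, so directions below are those of the labels. All 12 measured markers of lung epithelium and A549 cells were above the limit, and 6 of their 38 probe sets were higher and 0 lower, among them EPCAM at 0.87 and CDH1 at 0.66, both adhesion genes. The keratin gene KRT8 was higher at 0.19 in 1 of 8 probe sets, which ranged from -0.06 to 0.19, a call that ended without replicate 3 of shTIGD1. Of 29 measured immune and endothelial marker genes, 10 were above the limit. The mean log2 level over all probe sets of the 29 genes was 4.14 to 4.18 on the arrays labelled shTIGD1. It was 4.15 to 4.23 on those labelled shControl. Of the 95 probe sets of these genes 2 were higher and 4 lower, with the endothelial gene ESAM at 0.33. The call of ESAM ended when any array except replicate 3 of shControl was left out (limma adjusted p from 0.0798 to 0.131). Of 49293 probe sets that are no controls, 10867 (22.0%) passed a Benjamini-Hochberg adjusted p of 0.05 in limma, with 5648 of them higher under the shTIGD1 label and 5219 lower. That split was 24419 and 827 with the arrays levelled on their hybridization controls, and 38178 and 239 on their poly-A controls. Without replicate 1 of shTIGD1 the deposited counts were 3700 and 2976, and without replicate 2 or 3 of shTIGD1 or replicate 1 of shControl 3141, 3222 and 3227 were lower.

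NPY1R rose out of the background in the arrays labelled shTIGD1, and no other member did. Its brightest probe set, 11727387_s_at, read 6.01, 6.19 and 6.07 on the arrays labelled shTIGD1, against 4.58, 4.63 and 4.53 on those labelled shControl. The lowest of the arrays labelled shTIGD1 thus lay well above the highest of the arrays labelled shControl, and replicates differed little within a group. The means were 6.09 ± 0.09 in the arrays labelled shTIGD1 and 4.58 ± 0.05 in those labelled shControl (SD, n = 3 each). They differed by 1.51 on the log2 scale (SE 0.06, 95% interval 1.37 to 1.65). On the arrays labelled shTIGD1 the signal exceeded that of 98.3% to 98.6% of the olfactory receptor probe sets, on those labelled shControl that of 81.1% to 86.9%. All 3 arrays labelled shControl were under the background limit, so the change has only a lower bound. Set against the limit, whose mean over the arrays labelled shControl was 5.12, the rise was at least 1.96-fold. This bound depends on the limit: it was at least 1.04-fold with the 95th percentile of the immune and endothelial markers, 10 of whose 29 genes were themselves above the olfactory receptor limit, and at least 2.13-fold with a fixed log2 signal of 5. Such a move, above the limit on every array labelled shTIGD1 and on no array labelled shControl, was made by 149 probe sets (0.302%), and the opposite one by 30 (0.0609%).

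**Figure D1:**
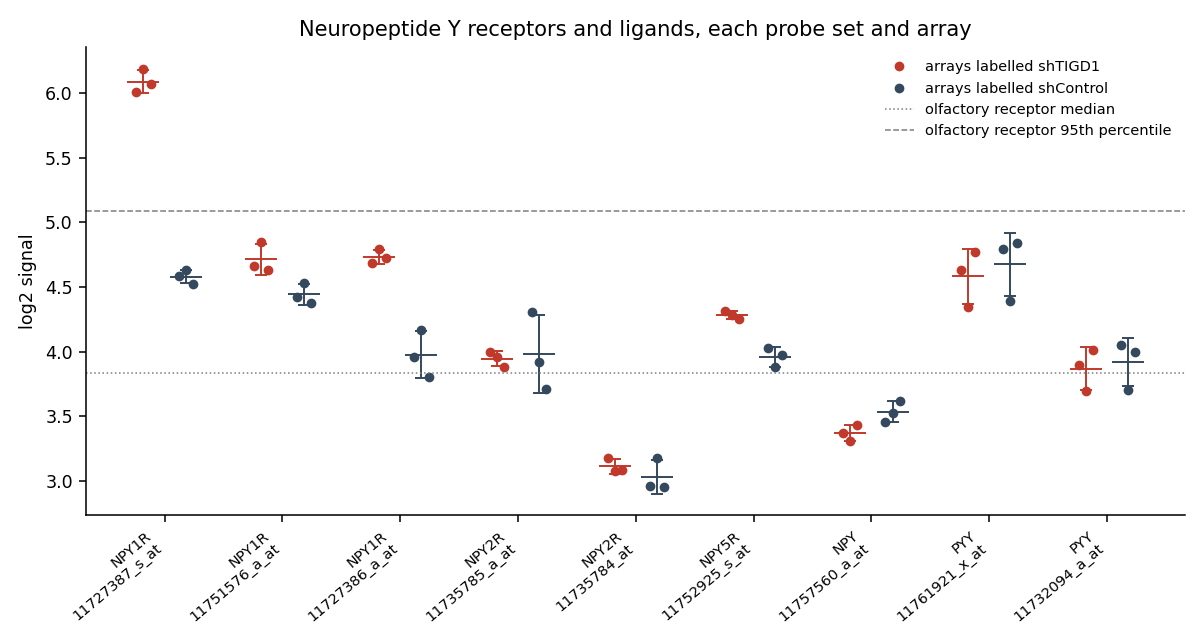
Log2 signal of each of the 9 member probe sets, with a point for every array, the mean as a horizontal bar and the SD as an error bar (3 arrays per group). Dashed and dotted lines give the 95th percentile and the median of the olfactory receptor probe sets, averaged over the 6 arrays. NPY1R probe set 11727387_s_at at 6.01 to 6.19 in the arrays labelled shTIGD1 is the only one above the upper line.

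The other 2 probe sets of NPY1R also read higher in the arrays labelled shTIGD1, by less, and stayed under the limit on all 6 arrays. Probe set 11727386_a_at read 4.68, 4.79 and 4.72 on the arrays labelled shTIGD1, against 3.96, 4.16 and 3.8 on those labelled shControl. The groups did not overlap, and the log2 difference was 0.76 (SE 0.09, 95% interval 0.54 to 0.98). Probe set 11751576_a_at read 4.66, 4.85 and 4.63 on the arrays labelled shTIGD1, against 4.42, 4.53 and 4.37 on those labelled shControl. These groups did not overlap either, but the lowest array labelled shTIGD1 and the highest labelled shControl were close, with a log2 difference of 0.27 (SE 0.07, 95% interval 0.10 to 0.45). No fold is given for either, since both groups were under the limit. The platform annotation ties the brightest to NM_000909.4, 11727386_a_at to M88461.1 and 11751576_a_at to AK298282.1. In Affymetrix naming the suffix _s_at marks probes that match several transcripts, which can be of different genes, and _a_at marks transcripts of 1 gene. The position of the probes was not analysed here.

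NPY5R, the neighbour of NPY1R and the gene of the Y5 receptor, had 1 probe set, 11752925_s_at. It read 4.31, 4.28 and 4.25 on the arrays labelled shTIGD1, against 4.03, 3.88 and 3.98 on those labelled shControl. The groups did not overlap and the difference was small, 0.32 on the log2 scale (SE 0.05, 95% interval 0.20 to 0.44), with all 6 arrays under the background limit. It exceeded 72.2% to 77.8% of the olfactory receptor probe sets on the arrays labelled shTIGD1 and 54.2% to 57.5% on those labelled shControl.

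NPY2R, the gene of the Y2 receptor, lay in the background in both groups. Probe set 11735785_a_at read 4.0, 3.96 and 3.88 on the arrays labelled shTIGD1, against 4.31, 3.92 and 3.71 on those labelled shControl. The arrays labelled shControl spread more widely and enclosed the others, and the log2 difference was -0.03 (SE 0.14, 95% interval -0.37 to 0.31). Probe set 11735784_at read 3.18, 3.07 and 3.08 on the arrays labelled shTIGD1, against 2.96, 3.18 and 2.95 on those labelled shControl. Here too the groups overlapped, with a log2 difference of 0.08 (SE 0.07, 95% interval -0.09 to 0.26), and the signal exceeded at most 11.1% of the olfactory receptor probe sets on any array.

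The genes of the ligands were under the background limit on every array as well. NPY read 3.37, 3.31 and 3.43 on the arrays labelled shTIGD1, against 3.46, 3.52 and 3.62 on those labelled shControl, with probe set 11757560_a_at. All arrays labelled shTIGD1 were the lower ones, by 0.16 on the log2 scale (a difference of -0.16, SE 0.06, 95% interval -0.30 to -0.03). The signal of NPY was under the olfactory receptor median on all 6 arrays. PYY probe set 11761921_x_at read 4.63, 4.35 and 4.77 on the arrays labelled shTIGD1, against 4.79, 4.4 and 4.84 on those labelled shControl. PYY probe set 11732094_a_at read 3.90, 3.69 and 4.01 on the arrays labelled shTIGD1, against 4.05, 3.70 and 3.99 on those labelled shControl. In both PYY probe sets the groups overlapped, with log2 differences of -0.09 (95% interval -0.45 to 0.26) and -0.05 (95% interval -0.32 to 0.23), and replicate 2 was the lowest array of either group. At these signals transcripts of NPY, PYY, NPY2R and NPY5R were not detectable above non-specific signal, which does not show that they are absent.

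**Figure D2:**
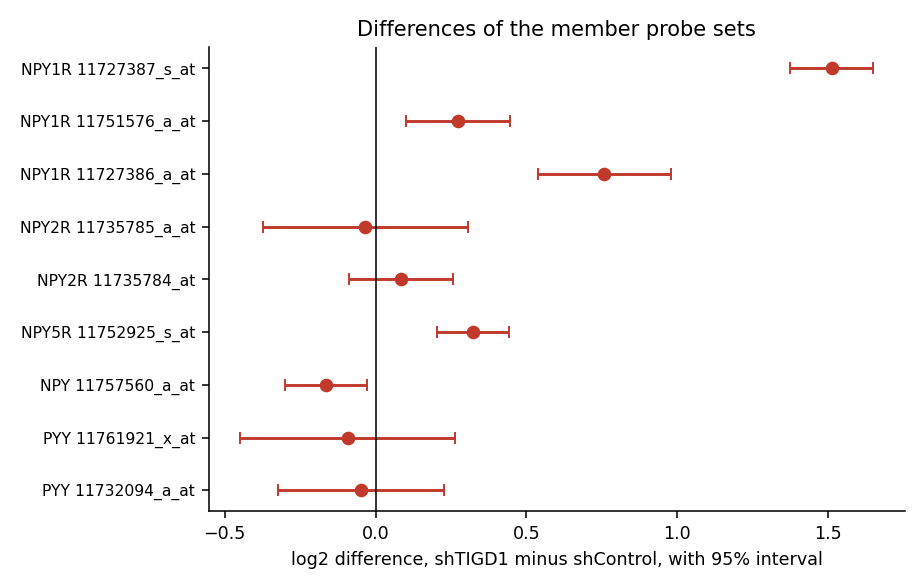
Log2 difference (arrays labelled shTIGD1 minus arrays labelled shControl) of the 9 member probe sets, each with its 95% interval from limma. The 3 NPY1R probe sets and NPY5R lie right of 0, NPY lies left of it, and the intervals of NPY2R and PYY include 0.

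Counted with the rule used for all probe sets, 4 of the 9 member probe sets passed as higher (3 of NPY1R and that of NPY5R), where the share over all probe sets was 11.5%, and 0 passed as lower. In 5 of 9 the groups did not overlap, beside 40.9% of all probe sets. Among the 16353 probe sets under the limit on all arrays, which resemble 8 of the 9 members in signal, 5.09% passed in either direction and 14.9% had groups without overlap. Of the olfactory receptor probe sets 2.22% passed. On the arrays labelled shTIGD1, 1 member probe set was above the limit throughout, against 6 with the olfactory receptor median as the limit. As the members were chosen from this comparison, nothing is read from these counts. The count of 4 fell to 3 when any array other than replicate 2 of shControl was left out, since 11751576_a_at then missed the threshold.

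The scale between arrays bears on the small differences. On the hybridization controls the median log2 difference of all probe sets was 0.19 and on the poly-A controls 0.31, against -0.02 as deposited. The difference of NPY1R probe set 11727387_s_at became 1.72 and 1.85, and that of NPY5R 0.53 and 0.66. The difference of NPY turned to 0.04 and 0.17, and those of PYY and of NPY2R probe set 11735785_a_at were also positive on both control scales, so these directions rest on the deposited scale. The antigenomic control probe sets, which match no human sequence, also differed between the groups, by 0.00 to -0.23 on the log2 scale, the most where their probes hold 25 G or C bases. Their part in the small differences near background was not tested.

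The remaining measured genes of the family did not pass on the deposited scale. NPY4R, the receptor gene preferred by pancreatic polypeptide, read 6.03, 6.18 and 6.15 on the arrays labelled shTIGD1, against 5.99, 6.07 and 6.08 on those labelled shControl. It was above the limit on all arrays, its groups overlapped, and the log2 difference was 0.07 (SE 0.05, limma adjusted p = 0.395). NPY4R has a near-identical copy, NPY4R2, and signal from the copies cannot be told apart. Both probe sets of NPY6R, a pseudogene in humans, and that of the pseudogene PPY2P were under the limit, with log2 differences of 0.14, 0.12 and -0.03. Expression of PPY was not analysed here.

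Genes that process and break down such peptides were partly higher in the arrays labelled shTIGD1. The prohormone convertases, which cut the precursors, were not among the 9 genes measured here. Of 20 probe sets of 9 genes, 7 passed as higher and 1, of the peptidase gene MME and under the limit, as lower (median log2 difference -0.02, equal to that of all probe sets). That is 40% of the list, beside 22.0% of all probe sets. Of the 20 probe sets, 10 were above the limit on all arrays of at least 1 group. The higher ones were all the probe sets of 3 genes, and the count of 7 held when each array was left out in turn, whereas MME then did not pass. Higher and lower were 9 and 0 on the hybridization scale, 16 and 0 on the poly-A scale. CPE, whose product removes basic residues from cut prohormones, read 7.94, 7.83 and 7.83 on the arrays labelled shTIGD1, against 7.13, 7.22 and 7.04 on those labelled shControl. Its log2 difference was 0.74 (SE 0.06, limma adjusted p = 0.000809), and that of its other probe set 0.38. PAM, the gene of the amidating enzyme, was higher by 0.40 (SE 0.05, limma adjusted p = 0.00382). Its 3 probe sets all passed and ranged from 0.20 to 0.40, the brightest at 0.20. ANPEP, an aminopeptidase of the cell surface, was higher by 0.75 (SE 0.09, limma adjusted p = 0.00245), and its other probe set by 0.66. The 2 probe sets of DPP4 were under the limit and did not pass, at -0.09 and -0.15. CPE, PAM and ANPEP act on many peptides besides these, and their signals say nothing on which of them were processed.

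Downstream of the receptors, the G protein and adenylyl cyclase list had 10 higher and 5 lower of 66 probe sets (25 genes, median 0.00). At 22.7%, its share of calls was near the 22.0% of all probe sets, so the genes named are examples of a list at the background rate. ADCY9, an adenylyl cyclase, was higher by 0.62 (SE 0.04, limma adjusted p = 0.000562) and ADCY7 by 0.42 (SE 0.08, limma adjusted p = 0.0117). For each of these genes 2 of 3 probe sets passed, with ranges from 0.00 to 0.62 and from -0.05 to 0.42. The gamma subunit gene GNG12 was higher by 0.55 with all 3 probe sets passing, which ranged from 0.13 to 0.55, the brightest at 0.13. GNAI3, an inhibitory alpha subunit, was higher by 0.27 (limma adjusted p = 0.00459) with 1 of 4 probe sets, which ranged from -0.13 to 0.27. The list of cyclic AMP-dependent kinase, phosphodiesterase and CREB genes, with the CREB targets NR4A1, NR4A2, NR4A3 and PPARGC1A, had 20 higher and 6 lower of 95 probe sets (23 genes, median 0.09). It had 27.4% called, beside 22.0% of all probe sets, and 4 of the 20 higher ones were of NR4A1, NR4A2 and PPARGC1A. PRKACB, a catalytic subunit of the kinase, led it at 0.93 (SE 0.12, limma adjusted p = 0.00368). For PRKACB 2 of 4 probe sets passed, and the 4 ranged from 0.10 to 0.93. PRKACB was followed by the regulatory subunit genes PRKAR1A at 0.68 (limma adjusted p = 0.000825) and PRKAR2A at 0.54 (limma adjusted p = 0.0273), and by the phosphodiesterase gene PDE3B at 0.43 (limma adjusted p = 0.00368). Of their probe sets, 2 of 3 passed for PRKAR1A (range 0.18 to 0.68), 2 of 4 for PRKAR2A (-0.08 to 0.54) and 2 of 3 for PDE3B (0.11 to 0.43). PRKAR2A did not pass without replicate 1 of shTIGD1 (limma adjusted p = 0.0849), nor without replicate 2 or replicate 3 of shTIGD1. In the kinase list 9 probe sets were higher without replicate 1 of shTIGD1 and 13 without replicate 2 of shTIGD1. Whichever array was left out, fewer lower ones passed, 1 to 3 in the G protein list and 1 to 4 in the kinase list. Over all probe sets the lower calls also fell in these fits, from 5219 to between 2976 and 3850. On the hybridization and poly-A scales, 32 and 60 probe sets of the G protein list and 71 and 85 of the kinase list were higher, and 0 were lower.

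Of the genes that switch such receptors off, 3 of 44 probe sets passed as higher and 5 as lower (17 genes, median -0.01), or 18.2% of the list beside 22.0% of all probe sets. RGS20, which speeds up the inactivation of inhibitory alpha subunits, read lower by 0.53 (a log2 difference of -0.53, SE 0.05, limma adjusted p = 0.00153). Among the receptor kinases, GRK5 was higher at 0.40 (limma adjusted p = 0.0175) while GRK3 was at -0.31 and GRK2 at -0.25 (limma adjusted p = 0.0173 and 0.0181). Of 5 probe sets each, 3 passed for GRK5 and 1 for GRK3, whose probe sets ranged from -0.31 to 0.24, and both of GRK2 passed. The calls of GRK3 and GRK2 ended without replicate 1 of shTIGD1 (limma adjusted p = 0.0607 and 0.0611), and on the poly-A scale both differences turned positive. They also ended without replicate 2 of shTIGD1 and without replicates 1 or 2 of shControl, and that of GRK5 without replicate 1 of shControl (limma adjusted p = 0.0564). Leaving out each array in turn, 1 to 4 probe sets of the list were higher, fewest without replicate 1 of shControl, and 1 to 5 lower, with all 5 only without replicate 3 of shTIGD1. On the hybridization scale 23 were higher and 1 lower, on the poly-A scale 33 and 1, and the calls of GRK3 and GRK2 ended on the hybridization scale too.

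Of 66 probe sets of other peptide receptors, 2 were higher and 4 lower, with a median of -0.04. These were 9.09% of the list, beside 22.0% of all probe sets and 5.09% of those under the limit on all arrays, and only 20 of the 66 were above the limit. Of their 43 genes, 27 were under the limit, like 4 of the 5 members. BDKRB1, the inducible bradykinin receptor, was the clearest at -0.59 (SE 0.06, limma adjusted p = 0.0016). The melanocortin receptor gene MC1R was at -0.21 (limma adjusted p = 0.0147), which turned to 0.00 and 0.13 on the control scales, and the bradykinin receptor gene BDKRB2 at 0.19 (limma adjusted p = 0.0472). MC1R did not pass without replicate 1 of shTIGD1 (limma adjusted p = 0.0563). The other probe set of BDKRB2 was at -0.09 and did not pass. The call of BDKRB2 ended when any of the 6 arrays was left out (limma adjusted p from 0.0583 to 0.112). The counts of the list were then 0 or 1 higher and 1 to 5 lower, with 1 lower without replicate 1 of shTIGD1. They were 22 and 1 on the hybridization scale and 44 and 1 on the poly-A scale.

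Oestrogen-responsive genes were examined because NPY1R is one in breast cells. Of 50 probe sets of 14 genes, 6 passed as higher and 8 as lower (median -0.04), or 28.0% beside 22.0% of all probe sets. By gene, 3 were higher and 3 lower, and those named are the 4 with the largest differences above the limit. XBP1 was higher by 0.42 (limma adjusted p = 0.00104), and STC2, RARA and CA12 were lower, at -0.56, -0.32 and -0.29 (limma adjusted p = 0.00164, 0.00963 and 0.0104). Of 10 RARA probe sets, 3 passed. Of 5 CA12 probe sets, which ranged from -0.29 to -0.01, 2 passed. RARA and CA12 did not pass on the hybridization scale and turned positive on the poly-A scale. The counts were 17 higher and 3 lower on the hybridization scale and 36 and 2 on the poly-A scale. Markers of neuroendocrine and neural cells, the usual sources of the peptides, had 5 higher and 0 lower of 50 probe sets (median 0.02). That was 10.0% of the list, beside 22.0% of all probe sets. Only 2 of the 20 genes were called, with 4 of the 5 probe sets of SNAP25 and 1 of ENO2. SNAP25, a membrane fusion protein of nerve endings, was higher by 0.69 (SE 0.04, limma adjusted p = 0.000396) and the enolase gene ENO2 by 0.50 (SE 0.05, limma adjusted p = 0.00164). The 4 probe sets of SNAP25 ranged from 0.25 to 0.69. The mean log2 level of these markers was 5.76 to 5.78 on the arrays labelled shTIGD1 and 5.72 to 5.73 on those labelled shControl, and 9 of their 20 genes were under the limit. Their part in the NPY1R signal was not tested.

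**Figure D3:**
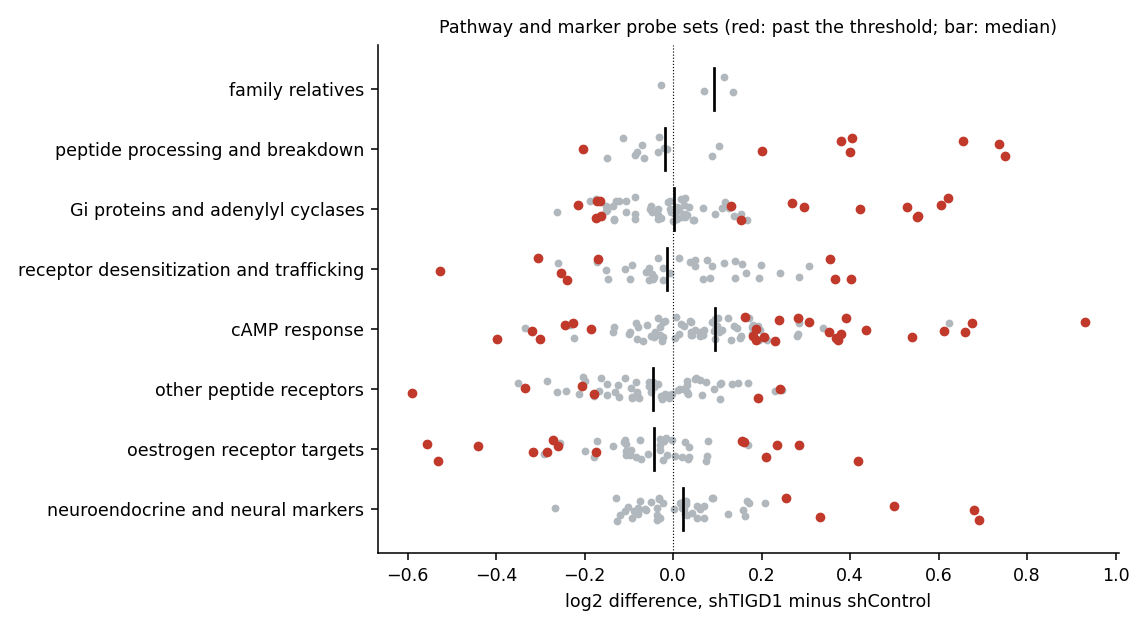
Log2 difference (arrays labelled shTIGD1 minus arrays labelled shControl) of every probe set of the family, pathway and neural marker lists, red where the limma adjusted p was under 0.05, with the list's median as a bar. The medians lie between -0.04 and 0.09, and the largest difference is that of 1 of the 4 PRKACB probe sets, at 0.93.

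The genes around the members on their chromosomes were set beside them, each by its brightest probe set. Of 35 measured genes in all, 6 were higher and 2 lower. That share was near the 22.0% of all probe sets, so the neighbours named as passing are examples at the background rate. Of 7 measured genes within 5 places of NPY1R or NPY5R, 1 passed, NAF1, a factor of H/ACA ribonucleoprotein assembly next to NPY1R, at 0.22 (SE 0.05, limma adjusted p = 0.0234). Of its 3 probe sets, which ranged from 0.05 to 0.22, only this 1 was higher. NAF1 did not pass without replicate 3 of shTIGD1 (limma adjusted p = 0.0725), nor without replicate 2 of shTIGD1 or replicates 1 or 3 of shControl. On the other side of the pair, TKTL2 was at -0.12 and under the limit, and TMA16 at 0.06. Around NPY2R, the fibrinogen genes FGB, FGG and FGA were higher at 1.25, 0.79 and 0.51 (limma adjusted p = 8.96e-05, 0.000276 and 0.000842). All their probe sets passed, 4 of FGB (0.75 to 1.25), 2 of FGG (0.65 to 0.79) and 5 of FGA (0.51 to 1.05). The genes closest to NPY2R, RBM46 and MAP9, were at -0.09 and 0.09 without passing, although 1 of 5 MAP9 probe sets was higher. Of 9 measured genes around NPY, OSBPL3 passed at 0.25 (limma adjusted p = 0.0369), with 1 of 4 probe sets, which ranged from 0.045 to 0.25. Among dimmer probe sets there, 2 of 3 of CCDC126 and 1 of 3 of CYCS were higher, and of 5 of TRA2A 1 was higher and 1 lower. OSBPL3 did not pass without any 1 of the 3 replicates of shTIGD1 or replicate 3 of shControl (limma adjusted p from 0.0682 to 0.100). Around PYY, TMEM101 passed at 0.24, LSM12 at -0.31 and G6PC3 at -0.25, with 1 lower call each among the dimmer probe sets of MPP3 and MPP2. LSM12, with 2 of 7 probe sets passing and a range from -0.31 to 0.12, and G6PC3 did not pass on the hybridization scale and turned positive on the poly-A scale.

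**Figure D4:**
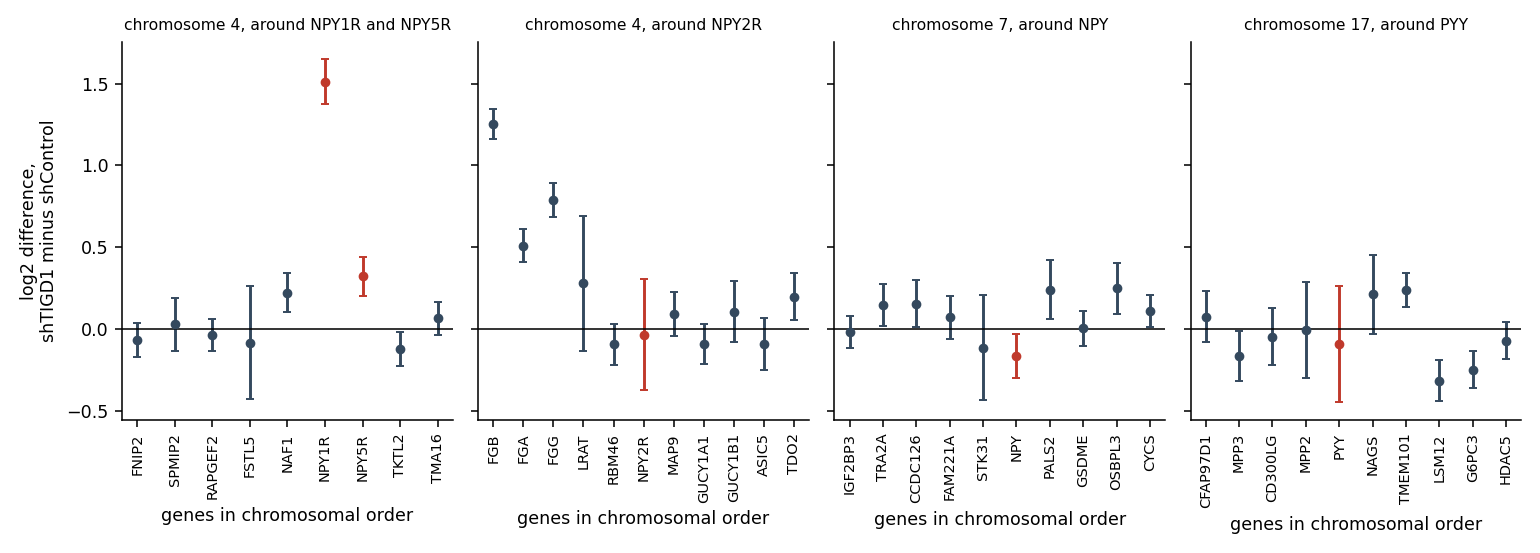
Log2 difference (arrays labelled shTIGD1 minus arrays labelled shControl) with its 95% interval for the members (red) and up to 5 measured genes on each side (dark), in chromosomal order. NPY1R at 1.51 stands above its neighbours, and near NPY2R the fibrinogen genes reach 1.25.

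The 5 genes whose profile over the 6 arrays was nearest to that of NPY1R probe set 11727387_s_at were SERP1, MZT1, BST2, MMP1 and COL13A1. The measure was the Euclidean distance between log2 values, each probe set centred on its own mean, and it ran from 0.24 for SERP1 to 0.30 for COL13A1. SERP1, a gene of the endoplasmic reticulum, read 10.60 ± 0.01 in the arrays labelled shTIGD1 and 8.93 ± 0.06 in those labelled shControl (SD, n = 3 each), far above the limit in both. BST2, an antiviral membrane protein, read 5.21 ± 0.08 in the arrays labelled shTIGD1 and 3.59 ± 0.13 in those labelled shControl (SD, n = 3 each). COL13A1, a collagen of the cell membrane, read 5.83 ± 0.10 in the arrays labelled shTIGD1 and 4.22 ± 0.11 in those labelled shControl, and like NPY1R and BST2 was above the limit on the arrays labelled shTIGD1 only. The MMP1 probe set was under the limit in both groups. With 2 groups of 3 arrays, likeness of this kind is mostly a like difference between the groups.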

How the data were processed

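Biotin-labelled RNA of A549 cells, made with a kit that primes at the 3′ end, was hybridized to 1-colour arrays, per the labels' protocols. The deposited log2 signals per probe set come from GCOS and RMA, as the submitters' processing notes name them, in versions not given in the sources used here. Values from 2.38 to 14.8 gave the log base. RMA makes arrays alike, so a shift common to most genes would be removed before deposit. Scan dates were not used here.

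Of 49395 probe sets, 102 controls were left out. Each of the other 49293 was fitted with lmFit and eBayes of limma 3.58.1 (R 4.3.3), 3 arrays against 3, in a two-sided test, and p-values were adjusted over all of them by Benjamini-Hochberg, with a threshold of 0.05. Exactly 1 symbol was given to 45278, several to 1333 and none to 2682. The fit was tested on simulated data. Promoter sequences and gene order came from RefSeq (GRCh38.p14), with a promoter window for all 5 members. Tables and plots used Python 3.11.15, pandas 2.3.3 and matplotlib 3.10.9.

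The members, the 10 gene lists (213 entries, 195 with a probe set) and the alternatives were chosen with earlier results of these data known. Genes named were all members, family relatives, DPP4, TIGD1, up to 4 genes per list with the largest differences past the threshold and above the background limit, the 5 nearest genes per side, and the 5 most like NPY1R. MME was named outside this rule after its value was seen. No pair of arrays held equal values in more than 184 probe sets. The number of arrays limits the precision. Alternatives tried were 1 probe set per gene, other scalings and normalization, a filter at a mean log2 signal of 5, other eBayes settings, a replicate block, other background limits and leaving out each array.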

Additional observations from a re-analysis of the deposited data

How the results depend on the processing

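The log2 difference of NPY1R probe set 11727387_s_at stayed between 1.46 and 1.55 when single arrays were left out, and levelling gave 1.72 (hybridization controls) and 1.85 (poly-A controls). Member probe sets counted as higher numbered 2 with 1 probe set per gene (of 5), 1 among probe sets with a mean log2 signal of at least 5, 5 with hybridization and 6 with poly-A controls, and 3 to 4 without single arrays. None counted as lower under any alternative run. The member probe sets above the background limit on all arrays labelled shTIGD1 numbered 1, also with the 95th percentile of the immune and endothelial markers or a fixed log2 signal of 5 as the limit, but 6 with the median of the olfactory receptors and 5 with the median of those markers. Over all probe sets, 1789 were higher and 2551 lower with 1 probe set per gene (fewer features), 24419 and 827 with hybridization controls, 38178 and 239 with poly-A controls, 3716 and 2746 with the replicate block, and 3700 to 4778 and 2976 to 3850 without single arrays. In the 7 family, pathway and target lists, 48 of 345 probe sets were higher and 29 lower. These counts were 13 and 13 with 1 probe set per gene, 176 and 5 with hybridization controls, 278 and 4 with poly-A controls, and 30 to 41 and 12 to 21 without single arrays, and 10 were lower with the replicate block. Levelling adds 1 value to every probe set of an array. Other causes were not tested. With poly-A controls the differences of GRK3 (0.0276), GRK2 (0.0803), MC1R (0.13), RARA (0.0157), CA12 (0.0468), LSM12 (0.0184) and G6PC3 (0.0838) turned positive, as did that of MC1R (0.0026) with hybridization controls. Same-numbered arrays did not deviate together (correlations -0.01, -0.10 and -0.07), so the numbers do not pair them. With the replicate block, 8 of 41 calls of named or neighbouring genes ended, and 0 turned. Near the background limit, the signal is too low to tell a low level from none.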
